A study of Homo sapiens with 4 samples.

Results

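The DEAD box and DEAH box RNA helicases, the gene families DDX and DHX, were described in a human uveal melanoma cell line with and without meclofenamic acid. A gene was taken as a member when its symbol in the gene table began with DDX or DHX followed by a digit, and DDX58 was not included. This gave 53 of the 14416 genes in the table. One of them, DDX3Y, was not analysed here, which left 52 genes with values, and 50 of these reached 1 FPKM (fragments scaled to transcript length and sequencing depth) in at least 1 input. The other 2, DDX4 and DHX58, were at or below 0.0743 FPKM in both inputs.

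The drug-treated group, MA, was OMM 2.3 cells of wild-type genotype given meclofenamic acid for 24 h. The control group, NC, was the same line, also wild type, given the solvent DMSO for 24 h. Meclofenamic acid, an anti-inflammatory drug of the nonsteroidal class, also serves as an inhibitor of FTO, an enzyme that removes N6-methyladenosine (m6A) from RNA. OMM 2.3 is 1 cell line derived from uveal melanoma, so the values describe that line alone. Poly(A) RNA of each group was fragmented and sequenced once directly (input) and once after capture with an antibody to m6A (RIP), which makes 4 libraries, 1 for each group and kind. With 1 library per group there was no replicate, no p-value was computed, and each difference describes these libraries.

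These helicases use ATP to open RNA duplexes or to strip proteins from RNA, and they take their names from a short amino acid motif in the ATPase core. DEAD box proteins open short duplexes locally, whereas DEAH box proteins translocate along a strand. Different members drive the steps of splicing, ribosome assembly, mRNA export, translation, decay and the sensing of foreign RNA. m6A is written mostly near stop codons, in long exons and in 3' UTRs, and it influences the splicing, translation and decay of the mRNA that carries it.

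Library totals worked back out of the FPKM table were 41630895 reads or fragments for the MA input and 37041597 for the NC input. All 7 melanocyte lineage markers were present, between 34.8 and 1327 FPKM in MA and between 55.9 and 4027 FPKM in NC. Their summed level was 3172 FPKM in MA cells and 7307 in NC cells, and whether this difference plays a part in the helicase values was not tested. Of 9 markers of other cells, 7 were in the table and 2, CD68 and LUM, reached 1 FPKM, with a summed level of all 7 of 102 in MA cells and 117 in NC cells. In bulk RNA, a lower level in every cell and fewer cells that express a gene cannot be told apart.

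As a family, the helicases were spread around the level of the other genes with no side taken by the family as a whole. Their median input level was 14.1 FPKM in MA cells and 12.7 in NC cells, beside 10.4 FPKM in MA cells and 8.84 in NC cells over the 10564 genes that reached 1 FPKM. Differences are given as log2((MA FPKM + 1)/(NC FPKM + 1)), a scale that understates the difference of low genes. The median difference of the 50 helicases was 0.14, and that of all tested genes was 0.11. A positive difference was found in 31 helicases (62%), against 56.7% of all tested genes. The DDX genes had a median of 0.14 (35 genes) and the DHX genes one of 0.13 (15 genes).

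A difference of 2-fold or more toward MA was reached by 4 of the 50 helicases, DDX10, DDX50, DDX21 and DDX59, while 10.3% of all tested genes reached it. In the other direction 0 of the 50 reached 2-fold, against 2.98% of all tested genes. The family's differences ran between -0.85 for DDX51 and 1.26 for DDX10, and their lower and upper deciles were -0.51 and 0.93, beside -0.60 and 1.01 for all tested genes. When FPKM values were divided without the added 1, 7 helicases were 2-fold or more higher and 1 was 2-fold or more lower, beside 17.8% and 4.44% of all genes. The helicases just inside the 2-fold limit were DDX59 at 1.00 and DDX21 at 1.05, and just outside it were DHX40 at 0.98, DHX29 at 0.92 and DDX60 at 0.87.

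**Figure D1:**
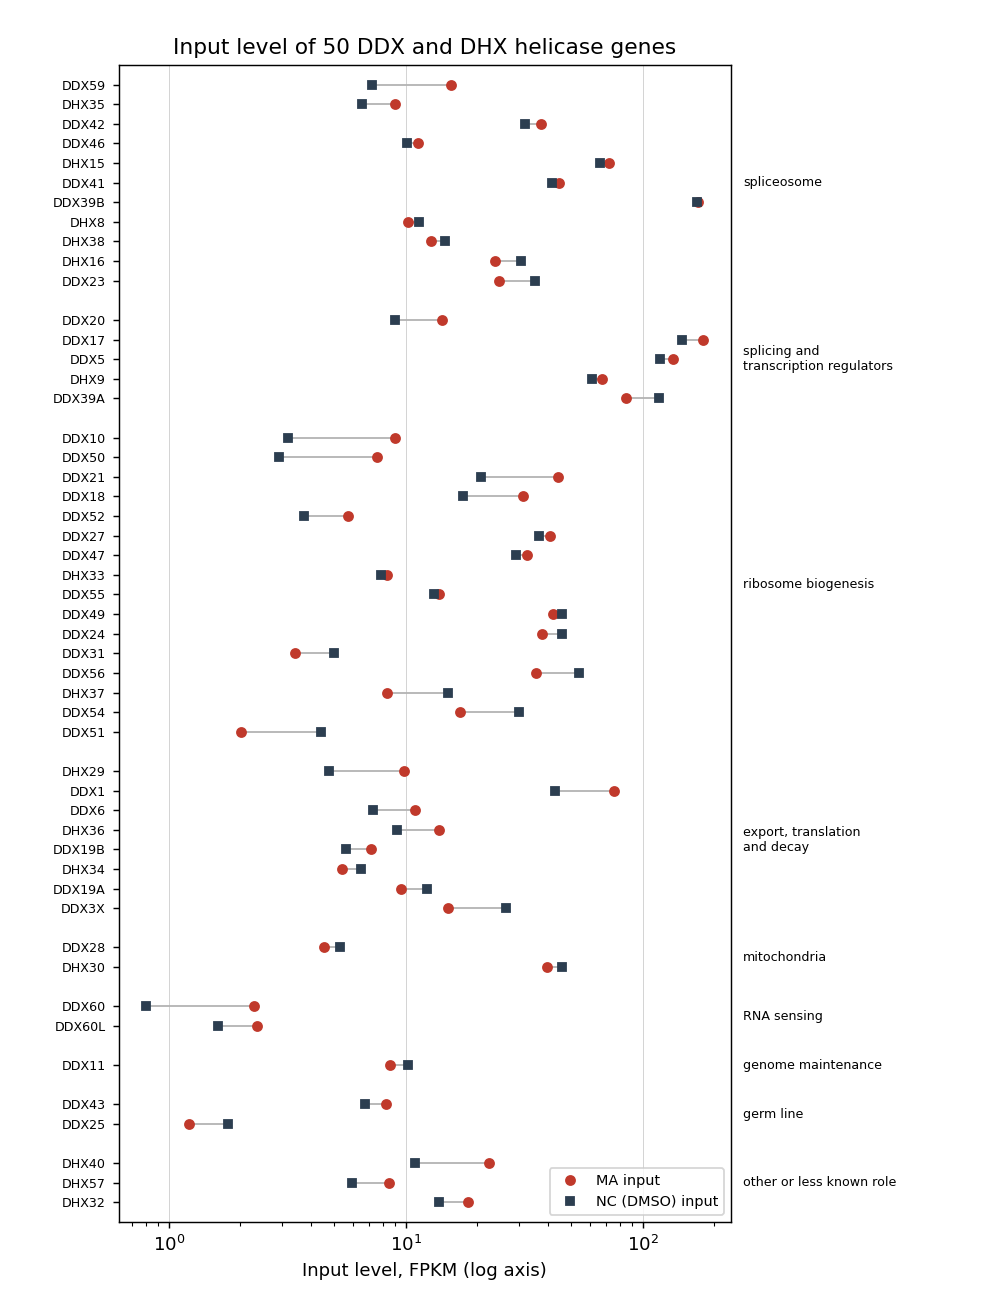
Input level of the 50 tested helicases in FPKM on a log axis, grouped by role, with a circle for MA and a square for NC (1 library each). DDX17, DDX39B and DDX5 are the most abundant in both inputs, and the widest gaps among the ribosome biogenesis genes run in both directions.

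**Figure D2:**
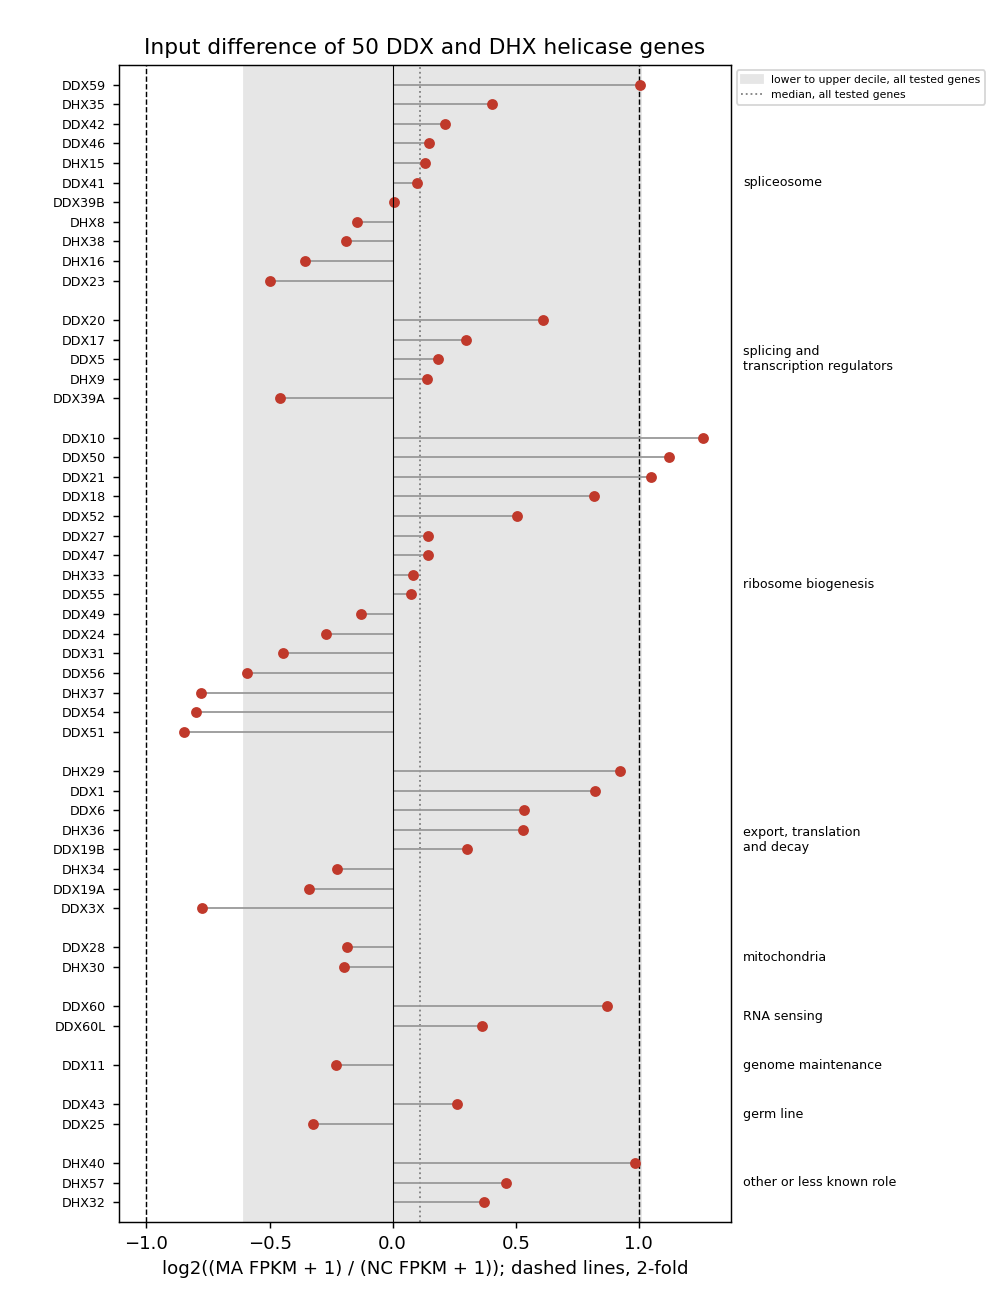
Input difference of each tested helicase as log2((MA FPKM + 1)/(NC FPKM + 1)), grouped by role and ordered within a group. The grey band spans the lower to upper decile of all tested genes (-0.60 to 1.01) and the dotted line their median (0.11). Dashed lines mark 2-fold, which DDX10, DDX50, DDX21 and DDX59 reach.

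The most abundant members were nearly the same in both inputs, with DDX17, DDX39B, DDX5 and DDX39A leading in each. In MA the order was DDX17 (180.5 FPKM), DDX39B (171 FPKM), DDX5 (135 FPKM), DDX39A (85.1 FPKM) and DDX1 (76.0 FPKM). In NC it was DDX39B (170.1 FPKM), DDX17 (146 FPKM), DDX5 (119 FPKM), DDX39A (117 FPKM) and DHX15 (66.0 FPKM). FPKM is a level per transcript length, so these genes can be set beside one another, but without replicates neighbours in either order cannot be called different.

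Among the helicases grouped here with the spliceosome, 1 of 11, DDX59, was 2-fold or more higher, near the 10.3% of all tested genes. The differences of the other 10 lay between -0.50 and 0.40. DDX59, which is mutated in an orofaciodigital syndrome, was at 15.5 FPKM in MA cells and 7.23 FPKM in NC cells. Its place in this group comes from the role lists used here, and the count of 1 depends on it. The plain log2 ratio, without the added 1, was 1.10, with an exact 95% interval of 0.94 to 1.26 that covers counting error only. The group's median difference was 0.10, with 7 members above 0 and 4 below.

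The DEAH proteins that drive the remodelling steps of splicing showed small differences in both directions. DHX16, which acts just before the first step, was at 23.8 FPKM in MA cells and 30.7 in NC cells, and DHX38, needed for the second step, was at 12.8 in MA cells and 14.7 in NC cells. DHX8, which releases the spliced mRNA, was at 10.2 FPKM in MA cells and 11.4 in NC cells. These 3 were lower in MA, by differences of -0.36, -0.19 and -0.14, whereas DHX15 and DHX35 lay on the higher side. DHX15, which takes the spent spliceosome apart, was at 72.4 FPKM in MA cells and 66.0 in NC cells (0.13). DHX35, found in the catalytic spliceosome, was at 9.0 in MA cells and 6.57 in NC cells (0.40).

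Apart from DDX59, the DEAD proteins grouped with the spliceosome were likewise split. DDX23, a U5 protein that helps to exchange U1 for U6 at the 5' splice site, was the lowest of the group at 24.7 FPKM in MA cells and 35.2 in NC cells (-0.50). DDX46, which acts with the U2 particle at the branch site, was at 11.3 in MA cells and 10.1 in NC cells (0.15), and DDX42, also tied to the U2 particle, was at 37.2 in MA cells and 32.0 in NC cells (0.21). DDX41, a gene mutated in familial myeloid neoplasms, had 44.6 FPKM in MA cells and 41.6 in NC cells (0.10). DDX39B, which loads onto pre-mRNA for splicing and export, was almost level at 171 FPKM in MA cells and 170.1 in NC cells (0.01). The differences of DDX41 and DDX39B turned below 0 when values were rescaled so that the median tested gene stood at 0.

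Among the regulators of splicing and transcription, 4 of 5 were higher in MA, none by 2-fold. DDX17 and DDX5, paralogous coregulators of transcription and splicing, were at 180.5 and 135 FPKM in MA, against 146 and 119 FPKM in NC, differences of 0.30 and 0.18. DHX9, also called RNA helicase A, was at 67.2 FPKM in MA cells and 60.9 in NC cells (0.14). DDX20, the SMN complex subunit Gemin3, had the largest difference of the group, at 14.3 FPKM in MA cells and 9.0 in NC cells (0.61). DDX39A, the close paralogue of DDX39B, was lower, at 85.1 FPKM in MA cells and 117 in NC cells (-0.46). Reads of DDX39A and DDX39B can be hard to assign, since parts of the coding sequences are nearly alike, and so both values are uncertain.

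The ribosome biogenesis helicases had the widest spread of the roles with more than 3 tested members. Of 16, 9 were above 0 and 7 below, the median was 0.08, and both the 3 highest and the 3 lowest of the 50 helicases are among them. DDX10, a small-subunit assembly factor known from leukaemia fusions, was at 9.0 FPKM in MA cells and 3.17 in NC cells. Its plain log2 ratio was 1.51, with a counting interval of 1.34 to 1.68, and the difference with the added 1 was 1.26. DDX50 and DDX21, paralogous nucleolar proteins whose genes lie beside each other on chromosome 10, came next. DDX50 was at 7.53 FPKM in MA cells and 2.92 in NC cells, with a log2 ratio of 1.37 (counting interval 1.06 to 1.69). DDX21, which links transcription by RNA polymerases to rRNA processing, was at 44.2 FPKM in MA cells and 20.8 in NC cells, with a log2 ratio of 1.08 (1.03 to 1.14). All 3 counting intervals lay above a plain 2-fold ratio, but no replicate shows how far 2 cultures of 1 group would differ.

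The 3 lowest of all helicases were DDX51, DDX54 and DHX37. DDX51, an assembly factor of the large subunit, was at 2.01 FPKM in MA cells and 4.41 in NC cells, a log2 ratio of -1.13 (counting interval -1.31 to -0.96) and a difference of -0.85. DDX54, a nucleolar protein whose yeast relative acts in the large-subunit pathway, was at 16.9 FPKM in MA cells and 30.1 in NC cells (-0.80). DHX37, which releases the U3 snoRNA from the small-subunit precursor, was at 8.33 FPKM in MA cells and 15.0 in NC cells (-0.78). The higher and the lower members thus included factors of both subunits.

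The remaining ribosome biogenesis helicases filled the space between these ends. DDX18, a nucleolar factor of large-subunit assembly, was at 31.4 FPKM in MA cells and 17.4 in NC cells (0.82), and DDX52, the relative of yeast Rok1 in small-subunit assembly, was at 5.72 in MA cells and 3.73 in NC cells (0.50). DDX56, a nucleolar helicase, was lower at 35.5 FPKM in MA cells and 53.9 in NC cells (-0.59), as was DDX31, at 3.40 in MA cells and 4.98 in NC cells (-0.44). Close to NC were DDX27 at 40.6 FPKM in MA cells and 36.7 in NC cells, DDX47 at 32.5 in MA cells and 29.3 in NC cells, and DDX49 at 41.7 in MA cells and 45.6 in NC cells. DDX24 was at 37.7 FPKM in MA cells and 45.6 in NC cells (-0.27). DHX33, a nucleolar factor tied to rDNA transcription, and DDX55, the relative of yeast Spb4, were within 0.08 of NC, and their sign turned when the median tested gene was set to 0.

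The promoters below are shown because DDX21 and DDX50, neighbours at the high end, share a short motif there, and DDX10 and DDX51, the highest and the lowest member, share another. RefSeq promoters (GRCh38.p14, 250 bases before to 50 after a start site) were found for 46 of the 50 tested helicases, with 61 promoters in all. The ETS motif was searched as CCGGAAG and its reverse complement CTTCCGG, and the cAMP response element as TGACGTCA, which reads the same on both strands. Each 60-base window is written 5' to 3' on the strand of the gene with the motif in capitals, and each lies wholly before the start site.
DDX21 (ETS motif, chr10:68956085-68956144, plus strand): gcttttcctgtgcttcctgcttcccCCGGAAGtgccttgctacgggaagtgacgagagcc
DDX50 (ETS motif, chr10:68901242-68901301, plus strand): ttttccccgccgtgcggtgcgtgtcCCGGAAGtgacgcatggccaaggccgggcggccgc
DDX10 (cAMP response element, chr11:108664972-108665031, plus strand): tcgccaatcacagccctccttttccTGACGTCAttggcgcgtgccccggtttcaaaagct
DDX51 (cAMP response element, chr12:132144405-132144464, minus strand): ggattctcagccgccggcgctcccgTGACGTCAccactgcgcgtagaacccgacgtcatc

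The ETS motif began 60 bases before a start site of DDX21 and 48 bases before one of DDX50. The motif was present in 23 of 46 helicases with a promoter (50%), beside 24.6% of the 8822 tested genes with one. Of these 23 helicases, 13 had an input difference above 0 and 10 one below. The cAMP response element was found in 5 of 46 (10.9%, against 4.14% of genes), among them DDX10, 72 bases before a start site, and DDX51, 120 bases before. The member with the highest and the member with the lowest difference thus both carry it. The E-box CACGTG, also the same on both strands, was in 10 of 46 helicases (21.7%, against 13.3% of genes), 5 above 0 and 5 below. The motifs were chosen with the promoters in view, the genes' promoters differ in number and base composition, and a match of letters is not evidence of binding.

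Helicases of mRNA export, translation and decay had a median difference of 0.42 over 8 genes, with 5 above 0 and 3 below and none past 2-fold. DHX29, which helps ribosomes scan structured 5' UTRs, was at 9.88 FPKM in MA cells and 4.73 in NC cells, a difference of 0.92 and a plain log2 ratio of 1.06 (counting interval 0.94 to 1.18). DDX3X, which promotes the translation of mRNAs with structured leaders, stood at the other end, at 15.1 FPKM in MA cells and 26.5 in NC cells. Its log2 ratio was -0.81 (counting interval -0.87 to -0.76). DDX3X has a near-identical copy on another chromosome, and its value is uncertain to the extent that reads were split between them.

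DDX1, a subunit of the tRNA ligase complex, was at 76.0 FPKM in MA cells and 42.5 in NC cells (0.82). DDX6, which joins decapping factors in processing bodies, was at 11 FPKM in MA cells and 7.27 in NC cells (0.53), and DHX36, which unwinds G-quadruplexes, was at 13.8 in MA cells and 9.23 in NC cells (0.53). DHX34, a factor of nonsense-mediated decay, was the other way, at 5.40 FPKM in MA cells and 6.48 in NC cells (-0.23). The export helicases DDX19B and DDX19A had opposite signs, with DDX19B at 7.14 in MA cells and 5.60 in NC cells (0.30) and DDX19A at 9.54 in MA cells and 12.3 in NC cells (-0.34). These 2 are neighbouring, near-identical genes, so their division of reads is uncertain.

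The mitochondrial helicases were both slightly lower in MA. DHX30, of mitochondrial RNA granules, was at 39.6 FPKM in MA cells and 45.6 in NC cells (-0.20). DDX28, of mitochondrial ribosome assembly, was at 4.50 FPKM in MA cells and 5.25 in NC cells (-0.19).

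The interferon-inducible helicase DDX60 and its neighbour DDX60L were low in both inputs and higher in MA. DDX60 was at 2.30 FPKM in MA cells and 0.804 in NC cells, from at least 138 recovered reads in MA cells and 43 in NC cells. Its plain log2 ratio was 1.51, as large as that of DDX10, with a counting interval of 1.01 to 2.04. These read numbers are the smallest that fit, and the length recovered with them, 1444.14 bp, was not whole. The true numbers are thus probably multiples of these, and the interval is too wide to be set beside that of DDX10. DDX60L was at 2.36 FPKM in MA cells and 1.61 in NC cells (0.36). DHX58, another interferon-inducible sensor, had at least 1 recovered read in each input, at 0.00925 FPKM in MA cells and 0.0104 in NC cells, and its direction was not detectable at this depth.

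The windows of DDX60 and DDX60L are shown because their promoters carry the core of the interferon-stimulated response element, searched on both strands as 2 GAAA repeats with any 2 bases between them and marked in capitals. The build is GRCh38.p14 and both genes lie on the minus strand of chromosome 4.
DDX60 (chr4:168318771-168318830): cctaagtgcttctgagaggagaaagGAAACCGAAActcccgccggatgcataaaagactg
DDX60 (chr4:168318806-168318865): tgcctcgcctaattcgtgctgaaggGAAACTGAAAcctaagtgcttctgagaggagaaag
DDX60L (chr4:168480508-168480567): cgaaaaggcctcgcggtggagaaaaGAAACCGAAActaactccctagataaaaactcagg
DDX60L (chr4:168480538-168480597): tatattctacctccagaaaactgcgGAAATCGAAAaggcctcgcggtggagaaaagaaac

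Both genes carry the same core, GAAACCGAAA, 53 bases before a start site in DDX60 and 50 bases before one in DDX60L, and each has another match upstream of it, so the paired windows overlap. The only other helicase with a match was DHX15, which makes 3 of 46 (6.52%), beside 3.62% of the 8822 genes with a promoter. All 3 had input differences above 0, at 0.87, 0.36 and 0.13, as had 62% of the tested helicases and 56.7% of all tested genes.

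The remaining members have roles outside these groups. DHX40, whose function is little known, was at 22.6 FPKM in MA cells and 10.9 in NC cells, with a log2 ratio of 1.05 (counting interval 0.95 to 1.15). DHX57 was at 8.52 FPKM in MA cells and 5.92 in NC cells (0.46), and DHX32 was at 18.3 in MA cells and 13.9 in NC cells (0.37), so that all 3 of this group were higher. DDX11, a DNA helicase of sister chromatid cohesion, was at 8.60 FPKM in MA cells and 10.2 in NC cells (-0.23), and it has near-identical copies elsewhere in the genome. Of the germ line helicases, the cancer-testis antigen DDX43 was expressed at 8.25 FPKM in MA cells and 6.71 in NC cells (0.26), and DDX25, a testis helicase, at 1.22 in MA cells and 1.77 in NC cells (-0.32). DDX4, the germ cell marker VASA, was at 0.0743 FPKM in MA and listed at 0 in NC.

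The relation of the input difference to recovered length was weak in the helicases and in the whole table. The recovered length is the smallest that fits both FPKM values of a gene. It can fall below the length used for FPKM, which places a gene in too short a group. Over all tested genes with a recovered length of at least 1000 bp, Spearman's rho between length and input difference was 0.16 (9642 genes). Over 47 helicases it was -0.19. The points share the same 2 libraries, and both values are descriptions. The median difference of the shortest, middle and longest length groups of all genes was -0.01, 0.15 and 0.27, and that of the helicases was 0.14, 0.16 and 0.08 (14, 20 and 13 genes).

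Helicases that belong to the wider superfamilies but have other names had a higher median difference, and whether they differ from the DDX and DHX genes was not tested. The table held 19 such genes and 17 of them were tested, with a median of 0.47, 10 above 0, 4 at 2-fold or more higher and 0 at 2-fold or more lower, beside the 10.3% and 2.98% of all genes. YTHDC2, an RNA helicase that binds m6A, was at 9.05 FPKM in MA cells and 2.97 in NC cells (1.34). ASCC3, which helps to rescue collided ribosomes, was at 6.05 in MA cells and 1.88 in NC cells (1.29). The 28 translation initiation factors, the partners of several of these helicases, had a median of 0.06, with 14 above 0, 3 at 2-fold or more higher and 0 lower. Those 3 were EIF5 (50.8 FPKM in MA cells and 20.7 in NC cells), EIF5B (27.8 in MA cells and 11.2 in NC cells) and EIF2S2 (184 in MA cells and 90.5 in NC cells).

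Nearly all expressed helicase genes carried an m6A peak in both groups. The MA list held 104 peaks in 45 helicase genes and the NC list 107 peaks in 47, and of all tested genes 80.0% had a peak in the MA list and 83.3% in the NC list. Of the 50 tested genes, 45 had a peak in both lists (90%), against 76.0% of all tested genes. None had one in the MA list alone (4.04% of all genes), and 2, DHX9 and DHX30, had one in the NC list alone (7.29% of all genes). The other 3, DDX25, DDX39B and DHX35, had a peak in neither list (12.7% of all genes), as had the untested DDX4 and DHX58. Where both inputs reached 5 FPKM, 36 of 40 helicases (90%) and 75.3% of all genes had a peak in both lists, so that the share was the same among the better expressed members.

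The number of peaks per gene was similar in both lists. It was equal in 30 of the 47 genes with a peak, larger in MA in 8 and larger in NC in 9. Equal and unequal numbers were not counted over all genes, so whether these counts are unusual cannot be told. The mean number per helicase gene with a peak was 2.31 in MA and 2.28 in NC. The exonic length under peaks summed to 44320 bp in MA and 44460 bp in NC. Spearman's rho between the 2 lists over 50 genes was 0.78. Genes with a longer recovered length, which is a minimum, had more peaks (0.35 in MA cells and 0.45 in NC cells, 47 genes). Peak number had little relation to the input level (-0.16 in MA and -0.06 in NC) or to the input difference (0.01 in MA and -0.11 in NC). These are descriptions over genes that share the same libraries.

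**Figure D3:**
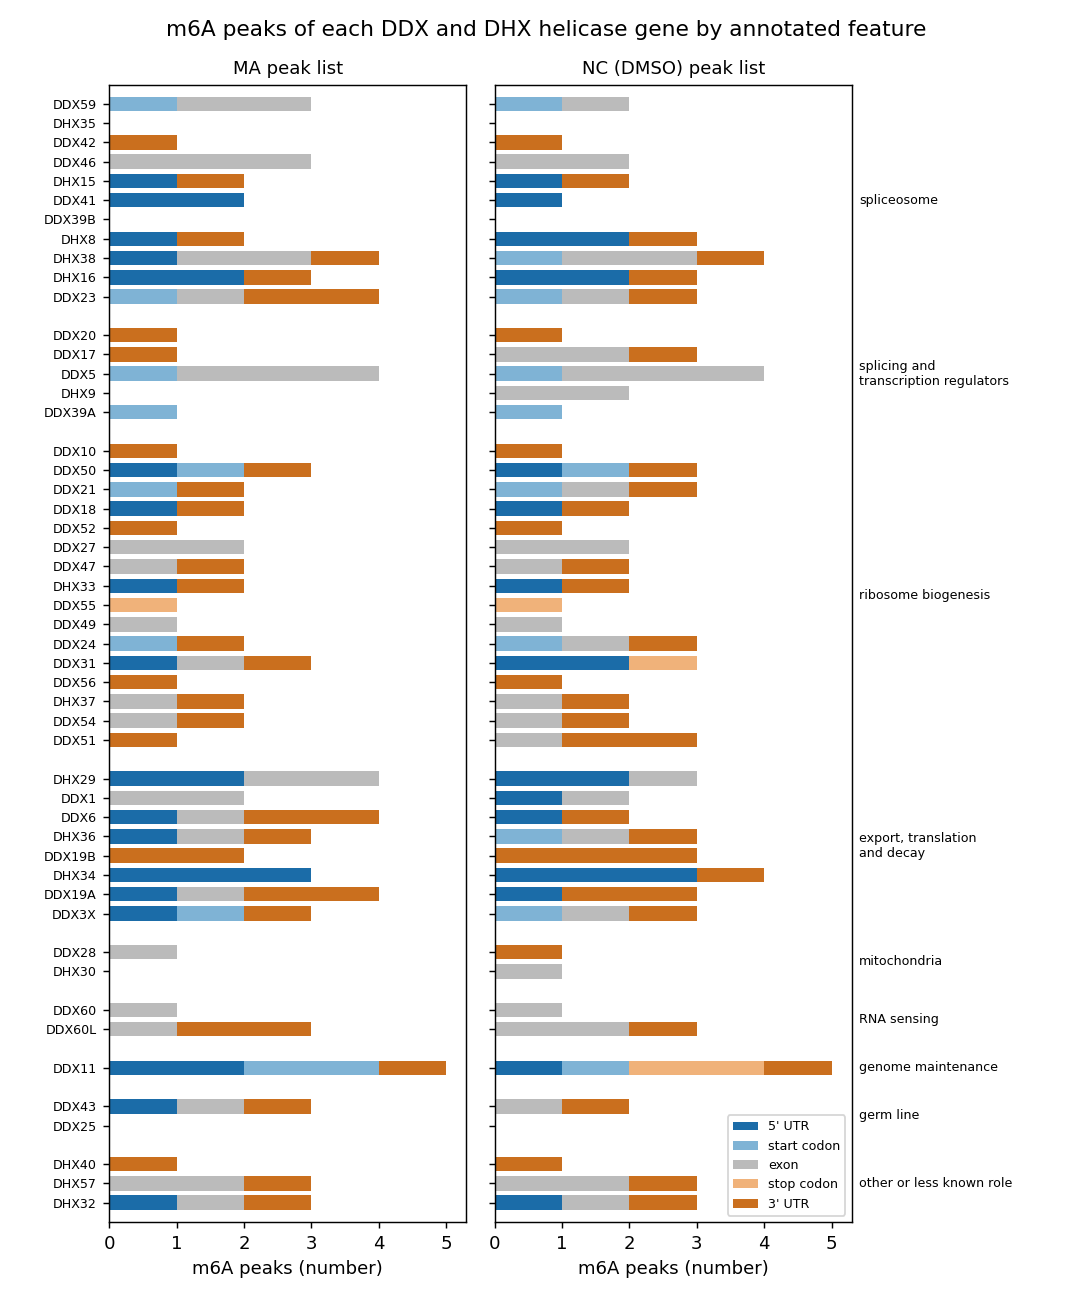
Number of m6A peaks of each tested helicase by annotated feature, in the MA list at left and the NC list at right, with genes grouped by role (1 list per group). Of the 47 genes with a peak, 30 have equal numbers in both lists, a share that was not computed over all genes. DHX9 and DHX30 have bars on the NC side alone, and DDX25, DDX39B and DHX35 have none.

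By role, all 16 ribosome biogenesis helicases had peaks in both lists, 28 in MA cells and 32 in NC cells. In 13 of the 16 every MA peak region of the gene and every NC region had an overlapping partner. In the family as a whole this held for 31 of the 45 helicases with peaks in both lists, and the share over all genes was not computed. The 16 genes had fewer peaks each, with means of 1.75 in MA and 2 in NC, against 2.31 in MA and 2.28 in NC in the family. DDX10, DDX50, DDX54 and DHX37, from both ends of the input differences, had the same number of peaks in each list (1, 3, 2 and 2). The 8 helicases of export, translation and decay had peaks in both lists as well, 25 in MA cells and 23 in NC cells. Of the 11 helicases grouped with the spliceosome 9 had peaks in both, 24 in MA cells and 21 in NC cells. DDX39B was without a peak in either list at 171 FPKM in MA cells and 170.1 in NC cells, levels that are uncertain for the reason given above, and why it had none was not tested. DDX5, at 135 FPKM in MA cells and 119 in NC cells, had 4 peaks in each list, 1 at the start codon and 3 in exons, and none in the 3' UTR.

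Helicase peak regions were shared between the lists more often than regions in general when any overlap counted. Of 104 MA regions 92 overlapped a NC region (88.5%, exact 95% interval 80.7 to 93.9%), against 79.6% of all MA regions. Of 107 NC regions 93 overlapped a MA region (86.9%, 79.0 to 92.7%), against 73.8% of all NC regions. The overlap was taken over whole spans with introns, and helicase peaks lay within a single exon less often (28.8% in MA and 31.8% in NC) than all peaks (55.9% in MA and 59.8% in NC). For peaks within 1 exon the helicase shares were 66.7% (20 of 30) in MA and 58.8% (20 of 34) in NC, near the 69.5% in MA and 59.5% in NC of all such peaks. Both lists were limited to such peaks here, so a peak whose only partner spanned exons counted as unshared. Since helicase peaks spanned exons more often, this comparison cannot decide whether the higher share holds within 1 exon.

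In DDX6 the MA list had 4 peaks and the NC list 2, and 2 of the MA peaks had no partner, a 3' UTR peak at chr11:118751061-118751361 and an exon peak at chr11:118760039-118768225. In DDX51 the order was the other way, with 1 peak in MA cells and 3 in NC cells. Its 2 unpartnered NC peaks were in the 3' UTR, at chr12:132137990-132138439, and in an exon, at chr12:132143803-132144235. The DDX51 input was also lower in MA (2.01 FPKM, against 4.41 in NC), and its part in the peak number was not tested. DDX60 had 1 exon peak in each list, at chr4:168252541-168255794 in MA and chr4:168276162-168280514 in NC, which did not overlap. DDX11, which had the most peaks of any helicase with 5 in each list, had 3 of the 5 shared on each side, and its near-identical copies make their placement uncertain.

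The 2 genes with peaks in the NC list alone differed in the strength of those peaks. Fold enrichment (RIP relative to input) is a value deposited by the authors and serves here to describe and rank peaks within a list. DHX30 had 1 exon peak, at chr3:47845831-47847309, with a fold of 3.43, close to the 3.38 median of helicase peaks in the NC list. DHX9 had 2 exon peaks, at chr1:182858157-182858617 and chr1:182887235-182887434, with folds of 1.54 and 1.63, near the lowest fold of the list, 1.5. The input of both genes was nearly level, at 39.6 FPKM in MA cells and 45.6 in NC cells for DHX30 and at 67.2 in MA cells and 60.9 in NC cells for DHX9. Peak positions are those of the deposited lists on GRCh38.p13, the build in the submitters' processing notes, counted from 1.

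Within each list, the helicase peaks were slightly less enriched than peaks in general. The median fold was 2.89 for helicases and 3.07 for all peaks in the MA list, and 3.38 and 3.57 in the NC list. The most enriched helicase peaks were mostly in 3' UTRs. In the MA list they were the DDX10 3' UTR peak with a fold of 7 (chr11:108723046-108940828), the DDX20 3' UTR peak with 6.64 (chr1:111765751-111767200) and a DHX57 exon peak with 6.54 (chr2:38858800-38861808), followed by 3' UTR peaks of DDX19B with 6 and DDX19A with 5.92. In the NC list the DDX10 3' UTR peak was again first with 13 (chr11:108723046-108940630), followed by 3' UTR peaks of DDX6 with 12.8 (chr11:118751661-118752060) and DDX52 with 11.5 (chr17:37614233-37620876), a DHX34 5' UTR peak with 10.0 (chr19:47349391-47349887) and a DDX19A 3' UTR peak with 9.62. DDX10, the helicase with the largest input difference, thus held the top helicase peak within each list. That peak was not within a single exon in either list, and the DDX10 input was 9.0 FPKM in MA cells and 3.17 in NC cells. Whether the fold is related to the input was not tested, and folds were not compared between lists.

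A larger share of helicase peaks than of peaks in general was labelled 5' UTR or start codon in both lists. Their 3' UTR share was not distinguishable from that of all peaks. The label is the one the lists give, and it is no safe guide to position. In DDX50, on the plus strand, a peak labelled 5' UTR lay downstream of the start codon peak in both lists. A peak over several exons also has a single label, and helicase peaks spanned exons more often than all peaks. The 5' UTR or the start codon held 34 of 104 MA peaks (32.7%, exact 95% interval 23.8 to 42.6%) and 32 of 107 NC peaks (29.9%, 21.4 to 39.5%), against 19.7% of all MA peaks and 20.5% of all NC peaks. The 3' UTR held 35.6% of helicase peaks in MA (26.4 to 45.6%) and 34.6% in NC (25.6 to 44.4%), against 42.8% of all MA peaks and 42.1% of all NC peaks. The 3' UTR interval of the helicases included the share of all peaks in both lists. Pooling the 5' UTR with the start codon was not planned, and the pooled share was not run under other settings. Taken singly, the intervals of these labels overlapped those of all peaks in both lists. For the 5' UTR in MA this overlap was slight, since the helicase interval, 15.4 to 32.4%, lay above the share of all peaks, 14.9%. For the 5' UTR in NC and the start codon in both lists the helicase interval included the share of all peaks. Peaks of 1 gene are not independent, so these intervals, which cover counting error only, are too narrow.

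Between MA and NC the helicase shares of each feature differed by less than their counting intervals. Of helicase peaks 23.1% in MA and 19.6% in NC were in the 5' UTR, 9.62% in MA and 10.3% in NC at the start codon, 30.8% in MA and 31.8% in NC in exons, and 0.962% in MA and 3.74% in NC at the stop codon. By gene, 31 of the 50 tested helicases had a 3' UTR peak in both lists and 23 had a 5' UTR or start codon peak in both. The same shares over all genes were not computed, so whether these counts are unusual cannot be told. DHX34 was the member with the most 5' UTR peaks, 3 in each list, while DDX19B had peaks in the 3' UTR alone, 2 in MA cells and 3 in NC cells.

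**Figure D4:**
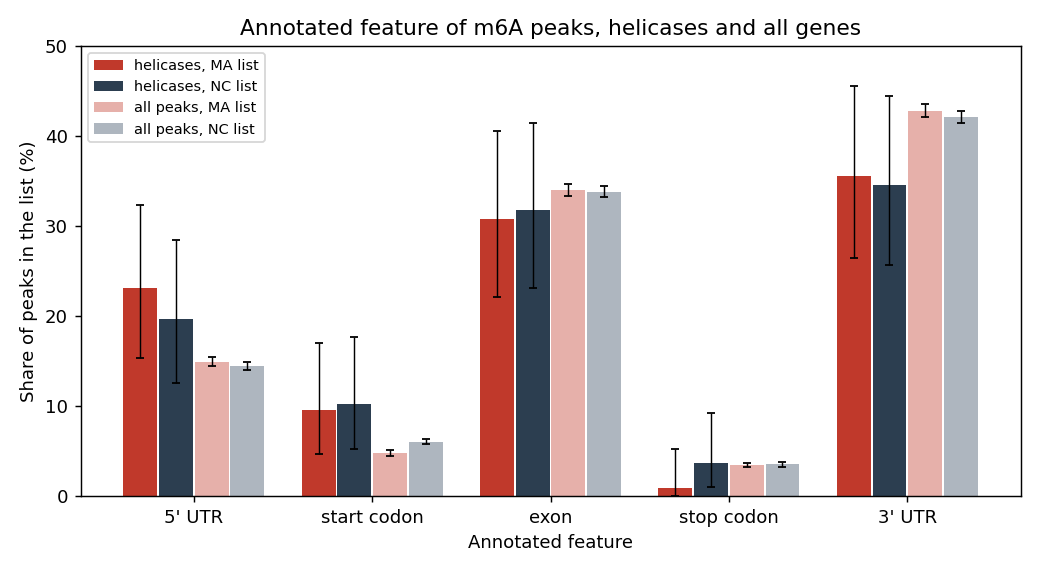
Share of m6A peaks by annotated feature in percent of the list, for the helicases (dark bars, MA then NC) and for all peaks (pale bars, MA then NC), with exact 95% binomial intervals for counting error. The helicase bars for the 5' UTR and start codon stand above those of all peaks, and those for the 3' UTR stand below them, and the intervals overlap in each of these features in both lists.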

How the data were processed

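The authors deposited a gene table with FPKM values of the 2 input libraries and 1 m6A peak list per group. The build GRCh38.p13 and the tools ChIPseeker, deepTools, HISAT, HISAT2 and Trimmomatic are listed, with neither roles nor versions, in the submitters' processing notes. For the read counter, the peak caller and the annotation, nothing is given in the sources used here. The fold (ratio) of RIP over input, the p-value and the FDR of each peak are the authors' deposited values, per the file headers.

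Python 3.11.15, numpy 2.4.6, pandas 2.3.3, scipy 1.17.1 and matplotlib 3.10.9 were used. FPKM differences were taken as log2 after adding 1, and a gene was tested where 1 or both inputs reached 1 FPKM. Since both FPKM values of a gene rest on whole reads, their ratio over many genes gave minimum read numbers and library totals. With the chosen totals, 191 genes had the length of their RefSeq span, against 40 for the next best. Among the 9884 genes that reached 1 FPKM in each input, 94.9% gave a length whole within 0.002 bp at a factor of 10 or less, against 2.51% after a small shift of the values. Intervals of a ratio or share are exact 95% (Clopper-Pearson) binomial intervals. They cover counting error only, since PCR copies without molecular identifiers need not be separate molecules. Ratio intervals rest on the minimum read numbers and are too wide where the true numbers are multiples of these. Repeated rows of a peak were counted once, touching peaks of a list were merged to regions, and an overlap of at least 1 bp on the same strand made a region shared. The read recovery, the 2-fold count and the ratio interval were tested on simulated data, the interval with the true and not the recovered reads. The steps on peaks, features and motifs were not tested in this way.

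The members and the gene lists by role were chosen with earlier results of these data known. Every helicase outside chromosome Y may be named, and those past 2-fold, at either end, near the limit or with the most peaks get full values. Of the related genes, the 3 with the largest difference per list are named, apart from 1 gene that is not reported here. The top 5 peaks of each list and the peaks of genes with peaks in 1 list are named, and the unpartnered peaks of DDX6, DDX51 and DDX60 were chosen after their values were seen. Promoter sequences are from RefSeq. Alternatives were other pseudocounts, TPM, centring on the median gene, other FPKM minimums, stricter peaks and overlaps, and, chosen after seeing the data, leaving out genes with near-identical copies.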

Additional observations from a re-analysis of the deposited data

How the results depend on the processing

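With 1 library per group no result has an error across cultures. No paired analysis was possible because each group has 1 library. The number of helicases 2-fold or more higher was 4, and it became 7 with a pseudocount of 0.1 and likewise 7 with TPM (DDX60, DHX29 and DHX40 were added), 0 with a pseudocount of 5, and 2 (DDX10 and DDX50) with the median tested gene at 0. Of all 10564 tested genes, 1087 were 2-fold or more higher, and this number moved alike, to 1801, 1793, 273 and 756 under these 4 settings. These settings change the size of every difference by construction. The number 2-fold or more lower was 0, and it became 1 (DDX51) with a pseudocount of 0.1. The median difference of 0.14 ran between 0.03, with the median gene at 0, and 0.22, with TPM, where the median of all genes was 0.20. The sign turned in 4 genes, DDX39B, DDX41, DDX55 and DHX33, with the median gene at 0. Leaving out the genes with near-identical copies gave a median of 0.14 and 4 and 0 genes past 2-fold. When an overlap had to cover 50% of each region, the shared helicase regions were 59.6% in MA and 57.9% in NC (all regions 51.2% in MA and 46.3% in NC), and for peaks within 1 exon 66.7% in MA and 58.8% in NC. A stricter overlap lowers the share by construction. Limiting both lists to peaks within 1 exon drops partners that span exons, which can only lower the share of the peaks kept. How much of the lower share comes from this was not computed. Peaks at a fold of at least 2 or an FDR of 0.01 or less gave overlap shares between 83.2% and 88.1%. Their peak numbers ran between 88 and 105, and their 3' UTR shares between 33.3% and 38.9%. The overlap shares of all regions were 79.5% in MA and 70.5% in NC at that fold. At that FDR they were 79.3% in MA and 73.98% in NC. The MA helicase interval at that fold, 77.4 to 92.8%, included the share of all MA regions. The NC interval at that fold, 74.1 to 90.1%, and both intervals at that FDR lay above the shares of all regions. An overlap of exon blocks was not run, since the lists give no blocks. Genes under about 1 FPKM, such as DHX58, are limited by depth.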
